A study of Mus musculus with 11 samples.

Results

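The 36 genes described here are genes of the blood and lymphatic vessels, read in the mouse colon. They were chosen by gene symbol, from what their products are known to do, and cover endothelial surface and junction proteins, the receptors of the VEGF and angiopoietin families, endothelial transcription factors, lymphatic vessel genes, adhesion molecules that capture leukocytes, and angiogenic ligands. Most are expressed by endothelium, but some, such as Vegfa, Pdpn and Prox1, are also or mainly expressed by other cells and do not mark vessels alone. All 36 were found among the 43346 genes of the count table, and 35 passed the low-expression filter that kept 19863 genes in all. E-selectin (Sele) was the exception, with 0 to 7 reads in any mouse. Colonic RNA was sequenced from 5 germ-free (GF) and 6 humanized male Swiss Webster mice. Humanized mice started as germ-free animals and were gavaged at 4 to 5 weeks of age with 300 μL of a stool suspension that came from 1 healthy human donor and had been mixed with an equal volume of anaerobic PBS. They then had 4 to 5 weeks for the microbiota to settle, whereas the GF mice received none, and both groups were studied at 8 to 10 weeks. Since 1 donor colonized all 6 humanized mice, they carry no variation between donors, and a gavage of sterile suspension is not among the groups. Colon tissue was used, and the part of the colon and the layers of its wall that were taken from each mouse are not given in the sources used here. Differences in the layers sampled and differences in the vessels themselves cannot be told apart here. In bulk tissue, fewer cells of a type and less RNA per cell cannot be told apart.

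Endothelial cells line blood and lymphatic vessels. VEGF ligands act on the receptor kinases Flt1, Kdr and Flt4, of which Flt4 serves mainly lymphatic vessels in the adult, and angiopoietins act on Tek with its partner Tie1. In the gut, blood capillaries carry away most absorbed nutrients, lymphatic lacteals take up fat, and postcapillary venules that carry MAdCAM-1 (Madcam1) admit lymphocytes into the mucosa.

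Windows just upstream of the RefSeq gene start are shown for 4 genes: Emcn, an endothelial sialomucin whose groups did not overlap, Flt1, a VEGF receptor whose groups overlapped, and Icam1 and Madcam1, adhesion molecules whose groups overlapped. They were chosen after their values were seen. They come from RefSeq on build GRCm38.p6, which matched 20 of the 36 symbols with 26 windows that reach from 250 bases before the start to 50 after it, and the 250 bases before the start are printed 5′ to 3′ on the strand of the gene. RefSeq starts can differ from those of the deposited genes. Of the 26 windows, 13 had their 250 bases wholly outside the deposited gene and 9 wholly inside it. Among the latter were those of Flt4 and Mmrn1, genes that were lower in humanized mice, whose RefSeq starts lie 416 and 19341 bases inside the deposited gene. These are not printed. The last 11 bases of the Emcn window lie inside the deposited gene, and the other 3 windows lie outside it. Each window was searched on both strands for an ETS motif (CNGGAAG, the family to which the endothelial factor Erg belongs) and for an NF-kB motif (GGNNNTTCC, a factor family of inflammatory signalling), which can share bases. The capitals mark ETS matches in the first pair, chr3:137340828-137341077 on the plus strand for Emcn and chr5:147726012-147726261 on the minus strand for Flt1.
Emcn: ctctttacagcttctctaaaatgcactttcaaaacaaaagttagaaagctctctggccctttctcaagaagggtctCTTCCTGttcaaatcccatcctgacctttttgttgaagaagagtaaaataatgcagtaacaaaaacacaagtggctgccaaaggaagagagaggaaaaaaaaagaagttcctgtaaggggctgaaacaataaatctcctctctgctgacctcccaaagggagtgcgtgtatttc
Flt1: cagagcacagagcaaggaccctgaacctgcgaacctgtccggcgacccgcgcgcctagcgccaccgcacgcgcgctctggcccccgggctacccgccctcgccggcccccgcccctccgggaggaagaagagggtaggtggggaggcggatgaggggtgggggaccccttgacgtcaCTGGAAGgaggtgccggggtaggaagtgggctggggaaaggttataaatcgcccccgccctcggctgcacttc
In the second pair the capitals mark NF-kB matches, chr9:21015690-21015939 on the plus strand for Icam1 and chr10:79664309-79664558 on the plus strand for Madcam1.
Icam1: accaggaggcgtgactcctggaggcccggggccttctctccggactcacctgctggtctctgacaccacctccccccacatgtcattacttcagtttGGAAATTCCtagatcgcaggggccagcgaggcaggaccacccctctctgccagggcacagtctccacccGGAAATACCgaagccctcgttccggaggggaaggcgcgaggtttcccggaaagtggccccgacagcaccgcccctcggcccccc
Madcam1: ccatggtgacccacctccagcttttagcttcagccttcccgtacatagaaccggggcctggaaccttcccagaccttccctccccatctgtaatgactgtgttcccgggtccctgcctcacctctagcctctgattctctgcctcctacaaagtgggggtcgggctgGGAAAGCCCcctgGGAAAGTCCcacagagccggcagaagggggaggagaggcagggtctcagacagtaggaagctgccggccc
Emcn and Flt1 each have 1 ETS match, and neither has an NF-kB match in the printed bases. Icam1 and Madcam1 each have 2 NF-kB matches, and Madcam1 also has 1 ETS match. Over the whole windows, the ETS motif was present in 12 of 26 windows of these genes (46.2%) and in 31.9% of all 32851 windows, and the NF-kB motif in 8 of 26 (30.8%) and in 18.5% of all windows. These matches describe the letters alone.

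Between 49097005 and 64148538 reads per GF mouse and between 39125290 and 54219854 per humanized mouse were counted on genes, and TMM normalization factors were 1.03 to 1.12 and 0.876 to 1.03. Levels are given as TMM-normalized RPKM (reads per kilobase of the deposited coding length, relative to the size of the library), a scale on which genes can be compared with each other. Differences between the groups are given as the log2-fold change (LFC), negative where humanized mice were lower, with the standard error (SE) of edgeR's quasi-likelihood fit. FDR values are Benjamini–Hochberg adjusted p-values of edgeR's exact test over all 19863 genes, and a gene is called lower or higher at FDR below 0.01. Of all genes tested, 10.1% were lower and 9.2% higher in humanized mice by this rule. At FDR below 0.05 these shares were 14.6% and 14.0%, and the values of the mice did not overlap between the groups for 9.73% (lower) and 8.67% (higher). Scaling to total counts in place of TMM moved the median LFC of all genes from 0.01 to −0.18 and the share of calls that were lower from 52.2% to 82.4%. The labels number the mice but name no batch, litter or cage, and the p-values measure the spread between these mice only.

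Of the 35 genes tested, 4 were lower in humanized mice and none was higher. The 4 are Angpt1, the angiopoietin that activates Tek, the lymphatic genes Mmrn1 and Lyve1, and the lymphatic VEGF receptor Flt4. This is 11.4% of the 35, close to the 10.1% of all genes, and the count alone does not set these genes apart. No gene of the 35 was higher even at an unadjusted p below 0.05, and neither edgeR's quasi-likelihood test nor DESeq2 called any of them higher. At FDR below 0.05, 16 were lower and none higher, beside 14.6% and 14.0% of all genes. LFC was negative for 33 of 35 genes, against 48.8% of all genes, and the median LFC was −0.89, against 0.01 over all genes. Groups did not overlap for 15 genes, each of them with all 6 humanized mice below the lowest GF mouse, beside 9.73% of all genes. The spread between mice was unequal: the coefficient of variation (CV) had a median of 13.1% in GF mice and 49.2% in humanized mice, against 10.4% and 16.5% over all genes. It was larger in humanized mice for 34 of the 35, and for 80.2% of all genes. The counts moved with 2 of the mice and with the scaling of the libraries. Without humanized mouse 5, 18 of the 35 were lower, when 11.5% of all genes were lower, and without humanized mouse 3, 17 were lower, when 11.8% of all genes were. Without mouse 3 the groups did not overlap for 22, beside 12.8% of all genes, each of the 22 lower in humanized mice. Without any other mouse the count was 4 or 5. With total counts 12 were lower, but 18.2% of all genes were then lower. With scaling to 11 epithelial genes, which moved the median LFC of all genes to −0.19, 4 were lower, beside 11.4% of all genes, and the groups did not overlap for 6, beside 10.2% of all genes.

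**Figure D1:**
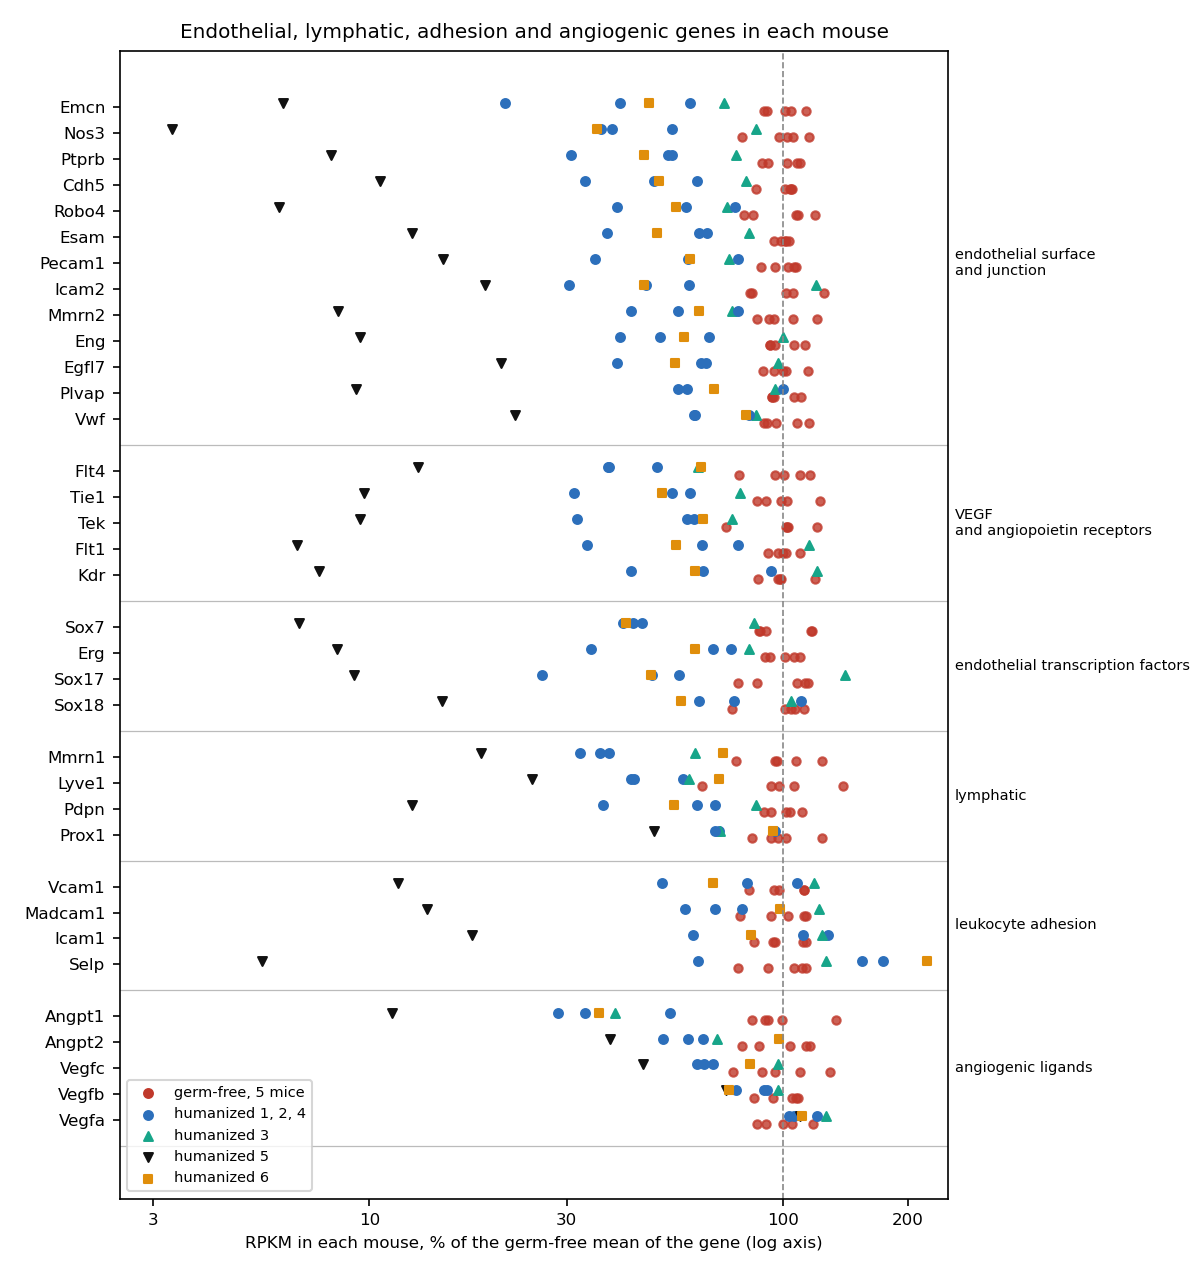
Level of each of the 35 tested genes in each mouse, as a percentage of its mean in germ-free mice (log axis), by the role of the gene. Humanized mouse 5 (black triangles) is the lowest humanized mouse for 34 of 35 genes, with a median of 11.8%, and humanized mouse 3 the highest for 22, with a median of 85.8%.

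The 13 surface and junction genes all had a negative LFC, between −1.28 (Emcn) and −0.61 (Vwf) with a median of −0.91. None passed FDR below 0.01 and 7 passed FDR below 0.05, beside 10.1% and 14.6% of all genes lower at these thresholds. Ptprb, a phosphatase that restrains Tek signalling, came closest. Its levels in GF mice were 3.70, 3.11, 3.45, 3.64 and 3.0 RPKM, and in humanized mice they ran from 0.274 to 2.60 RPKM with a median of 1.67 RPKM. All humanized mice were below all GF mice, and the LFC was −1.16 ± 0.37 (SE, FDR = 0.0106). Cdh5, the cadherin of endothelial junctions, was at 4.14 ± 0.335 RPKM (SD, n = 5) in GF mice and 1.97 ± 1.0 RPKM (SD, n = 6) in humanized mice (LFC = −1.07 ± 0.35, FDR = 0.0134). Pecam1, a junction molecule of all endothelium, had levels of 6.36, 5.30, 6.15, 6.46 and 5.73 RPKM in GF mice. In humanized mice it ran from 0.906 to 4.66 RPKM with a median of 3.55 RPKM, again without overlap (LFC = −0.91 ± 0.31, FDR = 0.0171).

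Emcn, a sialomucin of capillaries and veins, had the most negative LFC of the 13 and the groups did not overlap (LFC = −1.28 ± 0.42, FDR = 0.0149). Its FDR was 0.00665 with DESeq2 and 0.0385 in the quasi-likelihood test. Nos3, which makes nitric oxide in endothelium, had an LFC of −1.24 ± 0.46 (FDR = 0.0369), with humanized mouse 3 inside the GF range at 0.653 RPKM and humanized mouse 5 at 0.0255 RPKM. Its exons share bases with genes on the other strand, at most 1040 with any single gene, so its level is less certain. Esam, an adhesion molecule of tight junctions, was at 4.06 ± 0.133 RPKM (SD, n = 5) in GF mice, the narrowest relative spread of the 13, and at 2.1 ± 0.992 RPKM (SD, n = 6) in humanized mice (FDR = 0.0215). Egfl7, a secreted protein of vessel walls, was also under FDR 0.05 (LFC = −0.82 ± 0.28, FDR = 0.0231), and its exons overlap Agpat2 and a further annotated gene. Eng, a co-receptor for TGF-β family ligands, Robo4, a guidance receptor of endothelium, Mmrn2, a matrix protein of vessels, Icam2, a constitutive integrin ligand, and Vwf, the clotting glycoprotein, had FDR values between 0.0608 (Icam2) and 0.0813 (Robo4). Of these 5, the groups did not overlap for Robo4, Mmrn2 and Vwf. Eng exons share 61 bases with Fpgs on the other strand, a gene that was itself lower (LFC = −0.56, FDR = 1.52e-04). Plvap, which forms the diaphragms of fenestrated capillaries, was the most abundant of the 35 genes in GF mice on the RPKM scale. It was at 20.2 ± 1.55 RPKM (SD, n = 5) in GF mice and 13.0 ± 6.63 RPKM (SD, n = 6) in humanized mice, where mouse 5 had 1.88 RPKM and mouse 4 had 20.1 RPKM (FDR = 0.239).

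Of the 5 receptor genes, Flt4 was lower and the other 4 were not called, with a median LFC of −1.0 over the 5. Flt4 lies at chr11:49609263-49652739 in the deposited table (build mm10). Its levels were 1.49, 1.0, 1.29, 1.41 and 1.23 RPKM in GF mice and 0.169 to 0.812 RPKM in humanized mice, with a median of 0.562 RPKM. The groups did not overlap (LFC = −1.19 ± 0.30, FDR = 0.0013), the call held without any 1 of the 11 mice, and the quasi-likelihood test put it at FDR = 0.0119. Tie1 had 2.56, 2.28, 2.48, 3.07 and 2.17 RPKM in GF mice and between 0.244 and 1.97 RPKM in humanized mice, with a median of 1.32 RPKM and no overlap (LFC = −1.08 ± 0.36, FDR = 0.0171). For Tie1 FDR was 0.00800 with DESeq2 and 0.0419 in the quasi-likelihood test. Tek, the angiopoietin receptor, had an LFC of −1.0 ± 0.37 (FDR = 0.0346), with humanized mouse 3 at 1.88 RPKM against 1.82 RPKM in the lowest GF mouse. The VEGF receptors of blood vessels were more spread out. Kdr, the main signalling receptor for VEGF-A, was at 2.53 ± 0.302 RPKM (SD, n = 5) in GF mice and 1.64 ± 0.993 RPKM (SD, n = 6) in humanized mice (LFC = −0.62 ± 0.44, FDR = 0.323). Flt1, which binds VEGF-A and limits its availability, had an LFC of −0.77 ± 0.45 (FDR = 0.213). Humanized mouse 3 had 3.05 RPKM of Kdr and 2.01 RPKM of Flt1, above the highest GF mouse for both, whereas mouse 5 had 0.191 and 0.116 RPKM.

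The 4 transcription factor genes had a median LFC of −0.87, and none was called. Sox7 had the lowest FDR, with levels of 0.664, 0.492, 0.513, 0.495 and 0.659 RPKM in GF mice and 0.0383 to 0.480 RPKM in humanized mice, with a median of 0.240 RPKM. The groups were adjacent but did not overlap (LFC = −1.19 ± 0.39, FDR = 0.015). Erg, an ETS factor that maintains endothelial identity, also did not overlap (LFC = −0.87 ± 0.39, FDR = 0.098). Sox17, a factor of arterial endothelium, had an LFC of −0.86 ± 0.47 (FDR = 0.176), and humanized mouse 3 was above all GF mice at 0.676 RPKM while the next humanized mouse had 0.269 RPKM. Without mouse 3 the LFC of Sox17 was −1.42 (FDR = 0.00142). Sox18, which acts in vascular and lymphatic development, was the most abundant of the 4 at 3.65 ± 0.525 RPKM (SD, n = 5) in GF mice and 2.58 ± 1.27 RPKM (SD, n = 6) in humanized mice (LFC = −0.50 ± 0.36, FDR = 0.344).

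Among the 4 lymphatic genes, Mmrn1 and Lyve1 were lower. Mmrn1, a secreted multimerin of lymphatic endothelium that platelets also hold (chr6:60924976-60989378), had 3.03, 2.18, 2.73, 3.52 and 2.71 RPKM in GF mice and 0.527 to 2.03 RPKM in humanized mice, with a median of 1.05 RPKM. No humanized mouse reached the lowest GF mouse (LFC = −1.22 ± 0.28, FDR = 2.86e-04). Lyve1, the hyaluronan receptor of lymphatic capillaries that some tissue macrophages also carry (chr7:110850607-110862953), had 6.35, 3.80, 5.85, 8.34 and 5.59 RPKM in GF mice. In humanized mice it ran from 1.48 to 4.19 RPKM with a median of 3.02 RPKM, and the highest of them was above the lowest GF mouse (LFC = −1.01 ± 0.24, FDR = 7.60e-04). Both calls held in the quasi-likelihood test and without any 1 mouse. Pdpn, a membrane glycoprotein of lymphatic vessels and of fibroblasts, was at 3.10 ± 0.262 RPKM (SD, n = 5) in GF mice and 1.66 ± 0.797 RPKM (SD, n = 6) in humanized mice without overlap (FDR = 0.039). Prox1, the factor that specifies lymphatic identity, had the least negative LFC of the 4 (−0.42 ± 0.17, FDR = 0.0921). Prox1 was also the least affected in humanized mouse 5, where it was at 48.8% of the GF mean, against 12.7% to 24.7% for the other 3. Prox1 is expressed by enteroendocrine cells too.

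The adhesion molecules that capture leukocytes had the smallest LFC values of the 6 role groups, with a median of −0.32 over 4 genes, none of them called and none without overlap. Madcam1, the addressin that binds integrin α4β7, had the lowest FDR of them. Its levels were 2.18, 1.52, 2.19, 1.98 and 1.80 RPKM in GF mice and 0.267 to 2.36 RPKM in humanized mice, with a median of 1.43 RPKM (LFC = −0.45 ± 0.37, FDR = 0.426). Both the highest and the lowest value were those of humanized mice. Vcam1, the ligand of integrin α4β1, gave the same picture (LFC = −0.45 ± 0.40, FDR = 0.449), as did Icam1, the ligand of β2 integrins (LFC = −0.19 ± 0.36, FDR = 0.758). Selp, the selectin stored in endothelial granules and in platelets, went the other way. It had 0.385, 0.394, 0.368, 0.319 and 0.269 RPKM in GF mice and 0.0191 to 0.773 RPKM in humanized mice, with a median of 0.488 RPKM (LFC = 0.32 ± 0.54, FDR = 0.742). Humanized mice 2, 3, 4 and 6 were above all GF mice and mice 1 and 5 below them. Exons of Selp overlap annotated genes on the other strand. Without humanized mouse 5 the median LFC of the 4 genes was −0.10, and that of Icam1 turned to 0.02. Sele, a selectin that cytokines induce, had 0, 1, 2, 1 and 6 reads in GF mice and 0 to 7 reads in humanized mice, and no difference could be detected at this depth.

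Of the 5 angiogenic ligands, Angpt1 was lower. It had the most negative LFC and the lowest FDR of all 35 genes. Angpt1 (chr15:42424727-42676977) had 0.779, 0.718, 0.659, 1.05 and 0.706 RPKM in GF mice and 0.089 to 0.418 RPKM in humanized mice, with a median of 0.270 RPKM. Every humanized mouse was below every GF mouse, from 18 to 279 reads were counted per mouse, and the LFC was −1.57 ± 0.29 (FDR = 6.41e-06). Its exons share 737 bases with Gm17473 on the other strand, which had an LFC of −1.36 (FDR = 0.0359). Which cells of the colon the Angpt1 reads came from was not tested. Angpt2, the angiopoietin that endothelium releases and that can block Tek, was at 0.776 ± 0.125 RPKM (SD, n = 5) and 0.490 ± 0.155 RPKM (SD, n = 6), and its LFC of −0.66 ± 0.22 passed FDR below 0.05 (FDR = 0.0268) and, without humanized mouse 6, FDR below 0.01. Vegfc, the lymphatic growth factor that acts on Flt4, had an LFC of −0.51 ± 0.20 (FDR = 0.0699). Vegfb, which binds Flt1, was at 11.4 ± 1.13 RPKM (SD, n = 5) and 9.50 ± 1.19 RPKM (SD, n = 6) (LFC = −0.26 ± 0.10, FDR = 0.0963). Vegfa, the principal angiogenic factor, had 18.4, 16.4, 15.5, 14.2 and 13.5 RPKM in GF mice and 16.1 to 19.8 RPKM in humanized mice, with a median of 17.2 RPKM. The groups overlapped (LFC = 0.18 ± 0.08, FDR = 0.158), the LFC was −0.01 with total counts, and humanized mouse 5 was at 110% of the GF mean. Vegfa is made mostly by cells other than endothelium, epithelium among them.

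**Figure D2:**
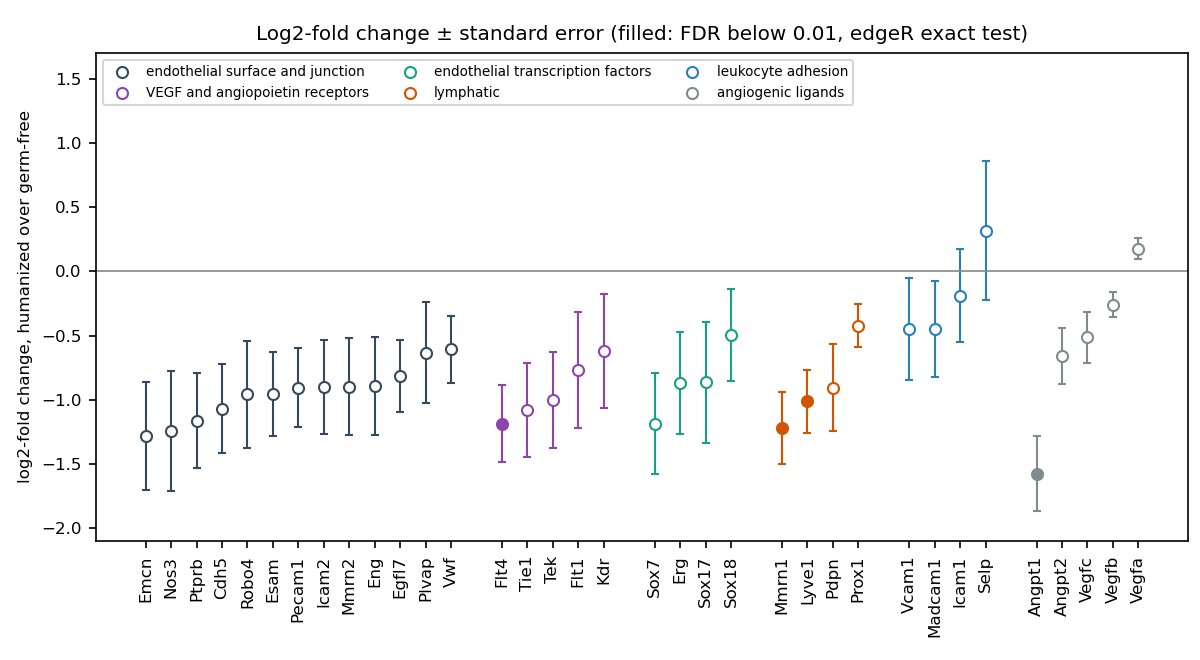
LFC of humanized over germ-free mice with its standard error for the 35 tested genes, grouped by role. Filled circles are the 4 genes at FDR below 0.01 (Flt4, Mmrn1, Lyve1 and Angpt1), and Selp and Vegfa are the 2 genes with a positive LFC.

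The 6 humanized mice differed widely from each other. As a median over the 35 genes, their levels were 39.6%, 58.7%, 85.8%, 66.1%, 11.8% and 61.1% of the GF mean in mice 1 to 6. Mouse 5 was the lowest humanized mouse for 34 genes, all but Vegfa, for which mouse 2 was the lowest. Within the 22 surface, receptor and transcription factor genes, mouse 5 had a median of 9.39% of the GF mean, from 3.34% (Nos3) to 22.5% (Vwf). This library was not a shallow one, with 54219854 reads on genes, the most of any humanized mouse, and it had the lowest TMM factor at 0.876. Mouse 3 was the highest for 22 of the 35 genes. Mice 4 and 6 were each the highest for 5 genes and mouse 2 for 3.

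Leaving out either extreme mouse changed the calls. Without mouse 5 the median LFC of the 35 genes moved from −0.89 to −0.67 while 18 genes were lower. Without mouse 3 the median LFC was −1.07 and 17 genes were lower. The same 15 genes were lower in both cases, namely Angpt1, Cdh5, Egfl7, Emcn, Eng, Esam, Flt4, Lyve1, Mmrn1, Nos3, Pdpn, Pecam1, Ptprb, Sox7 and Tie1. Mmrn2, Robo4 and Tek were lower only without mouse 5, and Icam2 and Sox17 only without mouse 3. For Ptprb, FDR was 9.00e-06 without mouse 5 and 0.00148 without mouse 3, at LFC values of −0.94 and −1.39. Plvap, Kdr, Flt1, Erg, Vwf and Sox18 were not called in either case, nor were Prox1, the 4 adhesion genes and the ligands other than Angpt1.

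**Figure D3:**
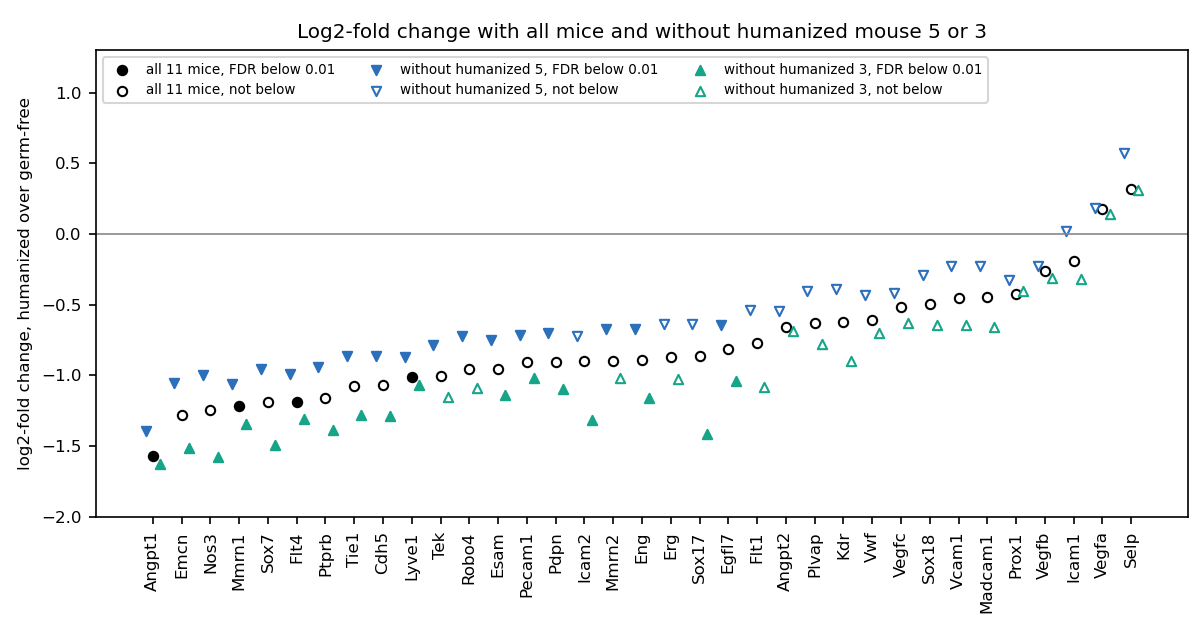
LFC of the 35 tested genes with all 11 mice (circles), without humanized mouse 5 (downward triangles) and without humanized mouse 3 (upward triangles), with filled symbols at FDR below 0.01. The filled symbols number 4, 18 and 17.

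The order of the humanized mice was not the same in each role group. For the 22 surface, receptor and transcription factor genes, mouse 3 was the highest for 16, mouse 4 for 5 and mouse 6 for 1 (Flt4). For the lymphatic genes Lyve1 and Mmrn1, as for Flt4, mouse 6 was the highest, at 4.19, 2.03 and 0.812 RPKM. Mouse 6 was also the highest for Angpt2 (0.757 RPKM) and Selp (0.773 RPKM). As medians over genes, mouse 3 was at 83.8% of the GF mean for the 22 genes and at 65.8% for the 4 lymphatic genes, while mouse 6 was at 55.0% and 70.8%. These are orders within 6 mice and were not tested.

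Other genes of the vascular system, taken from lists of known vessel genes, were read from the same fit. Of 61 tested, 20 were lower and 1 was higher in humanized mice, beside 10.1% and 9.2% of all genes, with a median LFC of −0.63. The count of 20 fell to 12 without GF mouse 3, GF mouse 4 or humanized mouse 1, and was 8 in the quasi-likelihood test, which called 6.53% of all genes lower. Among 19 further endothelial genes, 6 were lower (Cd34, Klf2, Thbd, S1pr1, Tspan18 and She), of which the quasi-likelihood test called only Klf2 and Tspan18. The largest differences were those of Tspan18 (LFC = −1.35 ± 0.29, FDR = 1.30e-04), Cd34, a sialomucin that fibroblasts also carry (LFC = −1.34 ± 0.34, FDR = 0.00102), and She (LFC = −1.30 ± 0.32, FDR = 0.00112). Clec14a, at 7.0 RPKM in GF mice and 6.17 RPKM in humanized mice, was among those not called (FDR = 0.197).

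Of 15 tested genes for signalling partners, 6 were lower. Nrp1, the co-receptor that presents VEGF-A to Kdr, was at 6.57 ± 0.216 RPKM (SD, n = 5) in GF mice and 2.76 ± 1.12 RPKM (SD, n = 6) in humanized mice (LFC = −1.25 ± 0.26, FDR = 3.86e-05). Nrp2, the corresponding co-receptor for VEGF-C, differed less (LFC = −0.35 ± 0.08, FDR = 0.00109). The other 4 were Pgf, a ligand of Flt1 (LFC = −1.72 ± 0.48, FDR = 0.0029), Calcrl, the adrenomedullin receptor (LFC = −1.16 ± 0.27, FDR = 2.84e-04), Figf, which encodes VEGF-D, and Hey1, a Notch target. The quasi-likelihood test called Nrp1, Nrp2 and Calcrl of the 6. The Pgf call was lost without 4 of the 11 mice, GF mouse 3 or 4 or humanized mouse 1 or 4, at FDR values up to 0.0164. Gdf2 had no reads in any mouse and was not tested.

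Of 14 genes of arterial, venous and capillary endothelium, 5 were lower (Ephb4, Gja4, Gja5, Rgcc and Gpihbp1) and Efnb2 was higher. The quasi-likelihood test called Ephb4 and Rgcc of these. Gja5, an arterial gap junction gene, held its call without any 1 mouse (LFC = −1.16 ± 0.29, FDR = 0.00134) but not in the quasi-likelihood test (FDR = 0.0115). Gja4, also a gap junction gene (LFC = −1.14 ± 0.33, FDR = 0.00611), lost its call without 9 of the 11 mice, all but humanized mice 3 and 5, and Gpihbp1, which anchors lipoprotein lipase to capillaries (LFC = −1.28 ± 0.40, FDR = 0.00893), lost it without 7, namely GF mice 1 to 4 and humanized mice 1 to 3. Efnb2, the arterial ephrin, was at 18.7 ± 2.17 RPKM (SD, n = 5) and 26.3 ± 5.31 RPKM (SD, n = 6) (LFC = 0.49 ± 0.13, FDR = 0.00293). The Efnb2 call was lost without GF mouse 1 or 2 or humanized mouse 6 and in the quasi-likelihood test (FDR = 0.0160). It was lost too with total counts and with scaling to 11 epithelial genes. The highest levels of Efnb2 were those of humanized mice 5 and 6 (32.3 and 33.1 RPKM), the mice with the highest sums of epithelial markers (128% and 130% of the GF mean), and mouse 5 was the lowest humanized mouse for 34 of the 35 vascular genes. The part of epithelium in its level was not tested. Ephb4 and Nrp2, both called lower, were at 22.3 and 11.1 RPKM in humanized mouse 5, against GF means of 27.6 and 13.2 RPKM. The median of the 22 surface, receptor and transcription factor genes in that mouse was 9.39% of the GF mean. The part of cells other than endothelium in the levels of Ephb4 and Nrp2 was not tested.

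Of 4 further lymphatic genes tested, 3 were lower, and Reln alone was called in the quasi-likelihood test. They were Stab1, a scavenger receptor that macrophages also express (LFC = −1.38 ± 0.34, FDR = 5.95e-04), Reln, secreted by collecting vessels (LFC = −1.31 ± 0.28, FDR = 1.57e-04), and Ccl21a, the chemokine that draws dendritic cells into lymphatics (LFC = −1.08 ± 0.32, FDR = 0.00652). The Ccl21a call held without humanized mouse 3, 5 or 6 and was lost without any 1 of the other 8 mice, at FDR values up to 0.0287. Of 9 tested leukocyte partners of the adhesion molecules, none was called. The integrin genes Itga4 (LFC = −0.12 ± 0.37, FDR = 0.858) and Itgb7 (LFC = 0.20 ± 0.25, FDR = 0.655) encode the chains that bind MAdCAM-1, and Itgal (LFC = 0.70 ± 0.33, FDR = 0.127) and Itgb2 (LFC = −0.13 ± 0.21, FDR = 0.732) those that bind Icam1.

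Most markers of smooth muscle, mural cells, fibroblasts and enteric neurons and glia were called lower in humanized mice, and no epithelial marker was. Smooth muscle markers were lower for 10 of 10 genes, with a median LFC of −1.91 and a summed level of 834 to 2381 CPM (counts relative to the size of the library) in GF mice and 95.9 to 856 CPM in humanized mice. Markers of mural cells, the pericytes and muscle cells around vessels, were lower for 6 of 7 (median LFC = −1.63, summed level 198 to 330 and 23.5 to 107 CPM), with Abcc9 at an LFC of −1.98 ± 0.32 (FDR = 5.53e-08). Fibroblast markers were lower for 6 of 8 (median LFC = −1.52, 786 to 1116 and 73.7 to 584 CPM), and enteric neuron and glia markers for 8 of 10 (median LFC = −1.83, 25.3 to 36.9 and 5.09 to 12.6 CPM). The quasi-likelihood test, which called 6.53% of all genes lower, called 5 of the 10 smooth muscle markers lower, 5 of the 7 mural, 4 of the 8 fibroblast and 7 of the 10 neuron and glia markers. In each of these 4 lists humanized mouse 5 had the lowest sum, as it did for the endothelial genes, at 7.22% to 17.2% of the GF mean. Humanized mouse 6 had the highest sum of smooth muscle markers (64.5% of the GF mean), and mouse 3 that of fibroblast markers (61.4%). Epithelial markers were higher for 2 of 11 (Krt18 and Elf3) and lower for none, with a median LFC of 0.21 and sums of 7702 to 10479 CPM in GF mice and 8806 to 11998 CPM in humanized mice. Angpt1 had an LFC of −1.57, beside medians of −1.63 for the mural and −1.52 for the fibroblast markers. The median of the 13 surface and junction genes was −0.91. The part of the differences in these markers in the levels of the vascular genes was not tested.

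**Figure D4:**
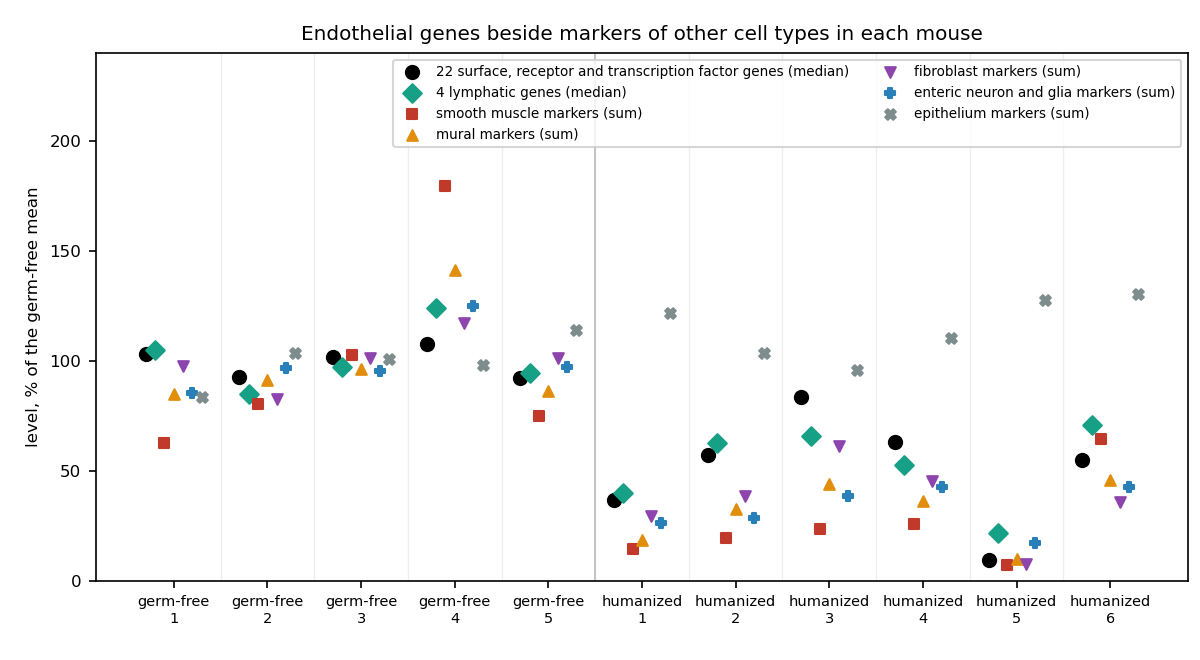
Level in each mouse, as a percentage of the germ-free mean, of the 22 surface, receptor and transcription factor genes and of the 4 lymphatic genes (medians over genes), and of the summed markers of 5 other cell types. In humanized mouse 5 the endothelial median is 9.39% and the epithelial sum 128%.

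Blood cells were checked because several of these genes are shared with them. Of the 2 platelet genes tested, Pf4 was lower (LFC = −1.82 ± 0.26, FDR = 4.59e-09), also in the quasi-likelihood test (FDR = 5.76e-04). None of 5 red cell genes was called (summed level 35.8 to 90.4 CPM in GF mice and 38.6 to 113 CPM in humanized mice). Macrophage markers were lower for 1 of 6 (Mrc1), with a negative LFC for all 6 and a median LFC of −0.60. Their sums were 101 to 134 CPM in GF mice and 23.5 to 126 CPM in humanized mice. B cell and follicle markers were higher for 1 of 6 (Cd79a), with sums of 7.24 to 12.8 CPM in GF mice and 5.12 to 43.0 CPM in humanized mice, where mice 2 and 3 were highest at 386% and 438% of the GF mean. The calls of Mrc1 and Cd79a were lost in the quasi-likelihood test (FDR = 0.0172 and 0.0318). Mesothelial markers (2 tested) and adipocyte markers (1 tested) gave no call, with sums of 0.267 to 8.26 and 6.07 to 22.8 CPM in GF mice and 0.565 to 2.31 and 8.54 to 14.9 CPM in humanized mice. Among humanized mice, mouse 5 had the lowest macrophage, platelet and B cell sums, at 19.7%, 29.9% and 52.1% of the GF mean. Mouse 3 had the highest of each. The lowest red cell and mesothelial sums were those of mouse 2, and the lowest adipocyte sum was that of mouse 3.

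The genes were also read relative to other endothelial genes. The libraries were scaled to the sum of Cldn5, Cd34, Clec14a, Ecscr, Rasip1 and Cd93, endothelial genes outside the 36 that themselves moved unequally, from an LFC of −1.34 (Cd34) to −0.18 (Clec14a). This scaling moved the median LFC of all genes to 0.73. On it, Angpt1 was lower (LFC = −0.93, FDR = 0.00161) and Vegfa higher (LFC = 0.89, FDR = 1.50e-04), close to the shift of all genes. The other 33 genes were not called, and 24 of the 35 kept a negative LFC, with a median of −0.31. Of all genes, 3.62% were lower and 56.4% higher on this scale. The groups did not overlap for Emcn and Angpt1 (lower) and Vegfa (higher), beside 2.78% (lower) and 41.2% (higher) of all genes. In humanized mouse 5, however, Clec14a gave 1594 of the 2196 reads of the scaling genes (72.6%), against 25.5% to 42.2% in the other 10 mice. Its level there was 7.39 RPKM, within the GF range, while the other 5 scaling genes together were at 16.3% of the GF mean. Scaled to those 5 genes alone, an alternative added after the values were seen that moved the median LFC of all genes to 1.27, none of the 35 was lower, Vegfa was higher (LFC = 1.44, FDR = 0.00446) and Angpt1 was not called (LFC = −0.62, FDR = 0.0906). On this scale 0.896% of all genes were lower and 56.3% higher. The groups did not overlap for 1 of the 35 in each direction, beside 1.41% (lower) and 36.8% (higher) of all genes, and 20 of the 35 had a negative LFC, with a median of −0.04. The Angpt1 call on the endothelial scale thus held only with Clec14a among the scaling genes.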

How the data were processed

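RNA of colon tissue was sequenced as 101 bp paired-end reads on an Illumina HiSeq-3000 from TruSeq v2 libraries. The authors deposited raw read counts per gene, without normalization, for the mouse build mm10. The submitters' processing notes name bcl2fastq 2.17.1.14, Bowtie2 2.2.3, TopHat2 2.1.0 and featureCounts of Subread 1.4.6-p5. Whether counting used strand is not given in the sources used here, nor how the deposited coding length was computed. RPKM rests on that length, so levels of different genes are less certain than differences between mice.

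Groups came from the sample labels. The test is that of the paper, run here with edgeR 4.0.16 in R 4.3.3: a low-expression filter (filterByExpr with 10 for the minimum count, 15 for the total, 10 for a large group and 0.7 for the proportion), TMM normalization, estimateDisp, the exact test and Benjamini–Hochberg correction over all tested genes. The tests were tried on simulated counts with the same spread for every gene and in both groups. That trial does not cover the unequal spread of the genes described here. The 36 genes, their role groups, the lists of other genes and the rules for naming were chosen with earlier results of these data known. Every one of the 36 is named. Values of each GF mouse, with the range of the humanized mice, are given for the gene with the lowest FDR in each role group, for genes that go against their group and, chosen after their values were seen, for Pecam1, Tie1, Lyve1 and Sele. Of the other lists, at most 3 genes with the largest LFC among those called are given with values, plus partners of the 36 genes, and Clec14a, Efnb2, Ephb4, Fpgs and Gm17473 after their values were seen. Exon overlaps were computed from GENCODE vM21, which may differ from the release used for counting.

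The alternatives were edgeR's quasi-likelihood test, DESeq2 1.42.0, RLE, upper-quartile and total-count normalization, scaling to the summed counts of 11 epithelial or 6 endothelial genes (later also 5, without Clec14a), FDR below 0.05, no filter, a filter of 10 counts in each mouse, leaving out each mouse and a replicate block.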

Additional observations from a re-analysis of the deposited data

Results flagged for a closer look

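Levels of the 35 tested genes were checked within each group for a mouse that stood apart from the others (Dixon's ratio of the gap to the range, above its 95% critical value). Of 70 groups tested, 2 were flagged, and chance flags about 1 in 20 groups. Cdh5 in germ-free mouse 5 was at 3.55 RPKM, with the nearest germ-free mouse at 4.18 RPKM. Sox17 in humanized mouse 3 was at 0.676 RPKM, with the nearest humanized mouse at 0.269 RPKM. Humanized mouse 5, the lowest humanized mouse for 34 of the 35 genes, was not flagged for any of them. The ratio was taken on RPKM and not on its logarithm, so a low level had little room to stand apart. The lack of a flag therefore does not show that this mouse was like the others.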

How the results depend on the processing

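Of 802 values of LFC recomputed for the 35 genes under the alternatives, 722 kept their direction and their side of FDR 0.01, 43 passed it in addition, 11 no longer passed it and 26 changed sign. Without each mouse in turn, the genes lower numbered 4 to 18 and the genes without overlap 15 to 22, all with humanized mice lower, beside 10.2% to 12.8% of all genes (12.8% without humanized mouse 3, which gave the 22). For the other vascular genes, 12 to 26 were lower and 0 to 2 higher, and for markers of other cell types 26 to 34 were lower and 2 to 4 higher. The 4 calls of Angpt1, Mmrn1, Lyve1 and Flt4 held without any 1 mouse.

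The quasi-likelihood test called 3 of the 35 lower and, of the other vascular genes, 8 lower and 0 higher, beside 6.53% and 7.05% of all genes. It called 22 of the markers lower, against 32. With total counts 12 of the 35 were lower, beside 18.2% of all genes, and 0 other vascular genes higher, and the LFC of Vegfa was −0.0084. Scaling to 11 epithelial genes, which moved the median LFC of all genes to −0.19 and the share of calls that were lower to 80.4%, left 6 of the 35 without overlap, beside 10.2% of all genes, called 0 other vascular genes and 0 marker genes higher, and gave Vegfa an LFC of −0.030. Scaling to 6 endothelial genes called 1 of the 35 lower and 1 higher, left 3 without overlap (2 lower, 1 higher, beside 2.78% and 41.2% of all genes), and called 5 other vascular genes lower, 12 of them higher and 23 markers higher, beside 3.62% of all genes lower and 56.4% higher. Under it LFC changed sign for Angpt2 (0.014), Icam1 (0.39), Madcam1 (0.16), Prox1 (0.27), Sox18 (0.094), Vcam1 (0.12), Vegfb (0.44), Vegfc (0.16), Vwf (0.025), Itga4 (0.45), Itgb2 (0.50) and Nrp2 (0.37), all below the shift of 0.73 in all genes. Scaling to 5 endothelial genes without Clec14a, added after seeing the data, called 0 of the 35 lower and 1 higher and left 2 without overlap (1 in each direction, beside 1.41% and 36.8% of all genes). It called 0 other vascular genes lower and 12 higher, and 5 markers lower and 23 higher, beside 0.896% and 56.3% of all genes. LFC changed sign for Angpt2 (0.42), Egfl7 (0.091), Icam1 (0.65), Kdr (0.12), Lyve1 (0.066), Madcam1 (0.43), Plvap (0.19), Prox1 (0.71), Sox18 (0.37), Vcam1 (0.35), Vegfb (0.95), Vegfc (0.61), Vwf (0.36), Itga4 (0.75), Itgb2 (0.89) and Nrp2 (0.95), all below its shift of 1.27. At FDR below 0.05, 16 of the 35 were lower and 5 markers higher, beside 14.6% of all genes lower and 14.0% higher. Without each mouse in turn, the LFC of Icam1 ran from −0.335 to 0.0226 (without humanized mouse 5), and that of Itga4 from −0.361 to 0.0649 (without humanized mouse 5), also changing sign without humanized mouse 1 (0.0214). The cause was not tested for any of these. With no filter 4 of the 35 were lower, beside 6.40% of all genes, and 5 with at least 10 counts in every mouse, beside 10.1%.

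Mice of the same number in both groups are different animals, and their deviations correlated from −0.133 to 0.0910, with 1 of 5 germ-free mice correlating best with its own number, so the numbers do not pair them. With a replicate block on mice 1 to 5, 1 of the 35 was lower, 2 other vascular genes were lower and 0 higher, 0 markers were higher, beside 2.54% of all genes lower and 2.54% higher, and the LFC of Selp was −0.32. The same mice without the block, a fit added after seeing the data, gave 4 of the 35 lower, and 5 other vascular genes lower and 0 higher, beside 5.31% and 5.24% of all genes.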
